A study of Mus musculus with 9 samples.

Results

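Microglia stimulated with medium from LN18 cells were compared with microglia stimulated with medium from U87-MG cells, on 6 of the 9 arrays of the experiment, 3 per medium, chosen by their labels alone. All cells were primary microglia from cortices of C57BL/6J mice aged P0-P2, and the stimulated ones were kept for 6 h in glioma-conditioned medium (GCM), that is, medium in which human glioblastoma cells of the established lines LN18 or U87-MG had grown. Before that, all cells had been cultured in medium with serum on dishes for non-adherent cells. The 3 untreated arrays were used to say which medium moved a gene, and they share in the estimate of the spread. Each line stands for 1 tumour, and how often the conditioned medium was prepared is not given in the sources used here. The 3 replicates are stated to be separate cortical cultures, but not whether a replicate number marks the same culture in all 3 groups.

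Microglia are the resident macrophages of the brain, and they gather in gliomas, where they lie within reach of proteins, lipids and metabolites that tumour cells release. They answer such signals through cytokine and growth factor receptors, which act on transcription, and through sensors of oxygen and nutrients. When oxygen is low, or when its sensors are blocked, the transcription factor HIF-1 induces glucose uptake, glycolysis, lactate export and angiogenic factors. Macrophages also raise glycolysis on inflammatory activation.

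Values were log2 signals deposited after normalization, and they ran from 1.56 to 12.88 with array medians between 3.39 and 3.41. The 3 arrays of each replicate number had equal means for 100% of the probe sets within 1e-06, so a shift shared by a replicate number is no longer in the values, and any separation of arrays described here refers to values without it. Differences between the media within 1 replicate number are not touched by such a shift. All 9 arrays were fitted in limma with the group and the replicate number as terms, and each of 17097 genes was taken at its probe set of highest mean signal. Microglia markers were present (median log2 signal 8.39 over 7 markers, with the median gene at 4.34), while those of astrocytes, neurons and fibroblasts had medians of 2.90, 2.96 and 2.68. Markers of border macrophages had a median of 3.37, with bright members among them. In bulk RNA, fewer cells of a type and less RNA per cell cannot be told apart.

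No probe set differed between GCM LN18 and GCM U87-MG at an adjusted p under 0.05 (0 of 45037, 0% called). At an unadjusted p under 0.05, 4.78% of the probe sets differed in limma, 1088 higher in GCM LN18 (2.42%) and 1064 lower (2.36%). Over genes this share was 5.21%, or 2.68% higher and 2.53% lower. The differences were small throughout, with a median size of 0.055 on the log2 scale and a 99th percentile of 0.307. For 99.7% of the genes the 95% confidence interval of the difference lay inside 2-fold, and for 98.3% inside 1.5-fold. The median gene had a log2 signal of 4.34, and values went down to 1.56. These shares therefore include dim genes, whose differences may be compressed, and do not describe bright genes only. Against untreated microglia, 113 genes (0.661%) passed the test in GCM LN18 against 3 (0.0175%) in GCM U87-MG, or 215 (0.477%) and 6 (0.0133%) of the probe sets. Both counts rest on the same untreated arrays, and the gap between them does not test the media against each other.

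The lowest adjusted p between the media was 0.0912 from limma, for 1444003_PM_at, a probe set unnamed here. Its log2 signal was 5.41, 5.48 and 5.45 in GCM LN18, with 4.73, 4.78 and 4.77 in GCM U87-MG and 4.73, 4.61 and 4.64 in untreated microglia, so that the GCM LN18 arrays stood alone. Over genes, the lowest adjusted p was 0.956. Each difference is therefore given as a value with its interval, and none of the named genes passed the test between the media.

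Genes chosen by the mean of both media against untreated microglia mostly lay farther from the untreated level in GCM LN18. The mean of both media is a separate contrast from their difference, so this choice did not use the difference. Of 76 genes higher in GCM (0.445% of genes), 69 were higher in GCM LN18 than in GCM U87-MG, or 90.8%, while 49.8% of all genes were. Of 42 genes lower in GCM (0.246% of genes), 38 were lower in GCM LN18, or 90.5%, with 50.2% over all genes. Against untreated microglia, 63 of the 76 and 30 of the 42 passed when GCM LN18 was tested by itself (0.661% of all genes). When GCM U87-MG was tested by itself, 3 and 0 passed (0.0175% of all genes), so that medium was not shown to move most of them. The choice already used the arrays of both media and the untreated ones. These counts against untreated microglia follow in part from it and are not a separate result. All GCM LN18 arrays lay above all GCM U87-MG arrays for 30 of the 76 (8.92% of all genes) and below them for 14 of the 42 (8.48%). The median difference was 0.17 for the first and -0.13 for the second. At an unadjusted p under 0.05, 26 of the 76 were higher in GCM LN18 and 1 lower, and 11 of the 42 were lower and 0 higher. Of all genes, 2.68% were higher and 2.53% lower. Both contrasts use the same estimate of the spread of a gene. Choosing by adjusted p favours genes with a small spread, which also lowers their p between the media. The shares of all genes are therefore not a like base for these counts.

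The 3 replicate numbers showed this to unequal degrees. Over the 76 genes, the median difference from the untreated array of the same number was 0.66, 0.72 and 0.58 in GCM LN18 against 0.59, 0.44 and 0.53 in GCM U87-MG. The widest gap was in replicate 2, where 68 of 76 genes were higher in GCM LN18, against 59 in replicate 1 and 47 in replicate 3. Over the 42 genes the medians were -0.57, -0.63 and -0.46 in GCM LN18 against -0.47, -0.39 and -0.37 in GCM U87-MG. Without replicate 2, 41 genes were higher and 11 lower in GCM, of which 30 were higher and 6 were lower in GCM LN18, with median differences of 0.070 and -0.018. Without GCM U87-MG replicate 2 alone, the counts were 79 of 100 and 38 of 60, and without replicate 1 no gene was chosen. The part of replicate 2 in this was not tested further.

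**Figure D1:**
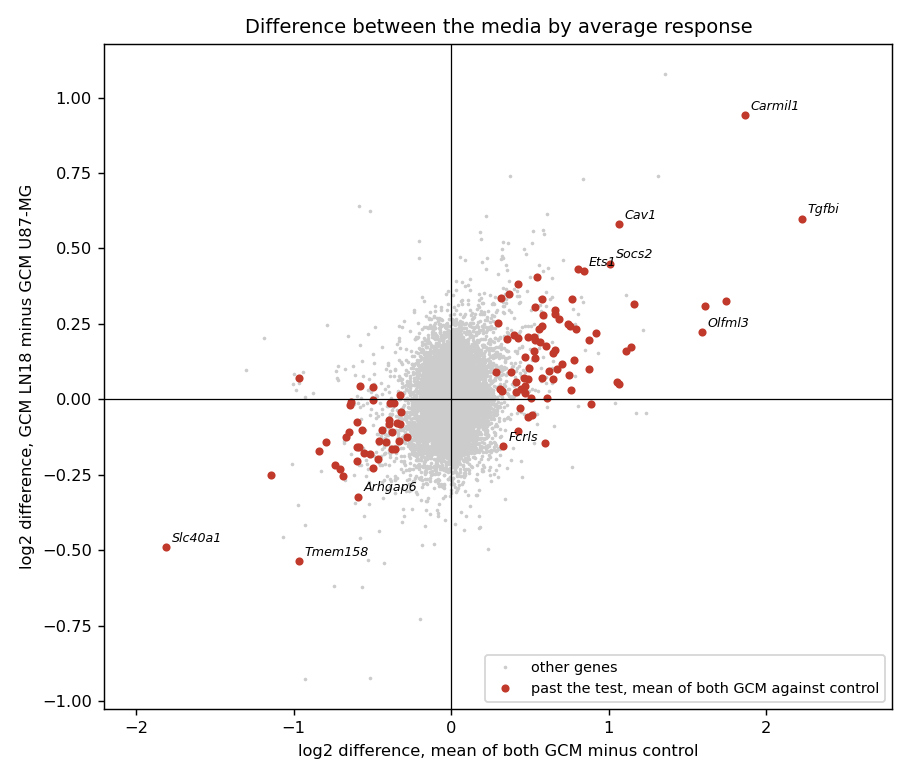
Each point is 1 of 17097 genes, placed by the log2 difference between the mean of both GCM and untreated microglia (horizontal axis) and the log2 difference between GCM LN18 and GCM U87-MG (vertical axis), n = 3 arrays per group. Red points are the 76 genes higher and 42 genes lower in GCM on average, of which 69 lie above 0 and 38 below 0 on the vertical axis.

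Among these genes, Carmil1, which encodes a regulator of actin filament capping, had the largest difference. Its log2 signal (probe set 1451804_PM_a_at) was 5.93, 6.18 and 5.76 in GCM LN18, with 5.26, 4.42 and 5.36 in GCM U87-MG and 3.40, 3.99 and 3.47 in untreated microglia. All GCM LN18 arrays lay above the GCM U87-MG arrays, and these above the untreated ones. Between the media it differed by 0.94 (95% confidence interval 0.34 to 1.54), from 0.67, 1.76 and 0.40 in the 3 replicate numbers, and replicate 2 was the widest. Without GCM U87-MG replicate 2 it was 0.497. Carmil1 rose by 2.33 (limma, adjusted p = 0.015) in GCM LN18, while its difference in GCM U87-MG was 1.39 (limma, adjusted p = 0.193).

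Cav1, the scaffold protein of caveolae, had log2 signals (probe set 1449145_PM_a_at) of 6.04, 5.66 and 5.61 in GCM LN18, with 5.16, 5.04 and 5.38 in GCM U87-MG and 4.18, 4.67 and 4.39 in untreated microglia. The groups did not overlap, and the media differed by 0.58 (95% confidence interval 0.21 to 0.95), or 0.378 without GCM LN18 replicate 1. Of the other 9 genes of caveolae, 7 were above 0, up to 0.22 for Flot1, and 2 below, Pacsin2 at -0.07 and Cavin3 at -0.12. The median of the 10 was 0.076. Socs2, a feedback inhibitor of cytokine and growth hormone signalling, was 4.61, 4.45 and 4.77 in GCM LN18, with 4.33, 3.91 and 4.25 in GCM U87-MG and 3.21, 3.79 and 3.13 in untreated microglia, a difference of 0.45 (95% confidence interval 0.02 to 0.88). Without GCM U87-MG replicate 2 that of Socs2 was 0.256, and its dimmer probe sets gave 0.24, 0.038 and -0.027. The membrane protein gene Tmem37 (8.40, 8.19 and 8.14 against 7.87, 7.69 and 7.86) differed by 0.43 (95% confidence interval 0.16 to 0.70), and Endod1 (6.52, 6.69 and 6.62 against 6.27, 6.05 and 6.29) by 0.41 (95% confidence interval 0.20 to 0.61), with the GCM LN18 arrays of both genes above all others, untreated included. Other probe sets of Endod1 gave differences of 0.29, 0.083, 0.072 and 0.25.

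Ets1, a transcription factor of the ETS family that acts downstream of ERK, was 5.01, 4.85 and 4.91 in GCM LN18, with 4.45, 4.45 and 4.59 in GCM U87-MG and 3.83, 3.99 and 3.79 in untreated microglia (probe set 1426725_PM_s_at). The 3 groups were ranked without overlap, from untreated to GCM U87-MG to GCM LN18. The difference of 0.42 (95% confidence interval 0.24 to 0.61) was 0.56, 0.40 and 0.31 in the replicate numbers. Against untreated microglia Ets1 rose by 1.05 (limma, adjusted p = 0.00508) in GCM LN18 and differed by 0.63 (limma, adjusted p = 0.0706) in GCM U87-MG. A dimmer probe set of the gene differed by 0.23 and the remaining ones by 0.050 and 0.026. Its relative Ets2 went the other way, at 8.41, 8.38 and 8.53 in GCM LN18, with 8.67, 8.63 and 8.56 in GCM U87-MG and 9.06, 9.14 and 9.05 in untreated microglia, which is a difference of -0.18 (95% confidence interval -0.33 to -0.02).

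Of the genes lower in GCM, Tmem158, a membrane protein gene first described as induced by Ras in senescence, showed the largest difference between the media. It was 4.54, 4.25 and 4.47 in GCM LN18, with 5.10, 4.82 and 4.95 in GCM U87-MG and 5.39, 5.96 and 5.61 in untreated microglia (probe set 1428074_PM_at), again without overlap, and the media differed by -0.54 (95% confidence interval -0.88 to -0.19). Dimmer probe sets of Tmem158 gave -0.21 and -0.043. Tmem158 fell in GCM LN18, with a difference from untreated microglia of -1.23 (limma, adjusted p = 0.0194). Arhgap6 was 6.91, 6.92 and 7.08 in GCM LN18 against 7.47, 7.23 and 7.18 in GCM U87-MG, a difference of -0.32 (95% confidence interval -0.55 to -0.09), or -0.190 without GCM U87-MG replicate 1. Its dimmer probe sets gave -0.14 and 0.13. Slc40a1, the iron exporter ferroportin, was 7.19, 7.41 and 7.77 in GCM LN18, with 7.64, 8.39 and 7.82 in GCM U87-MG and 10.09, 9.12 and 9.33 in untreated microglia, and its difference of -0.49 (95% confidence interval -1.14 to 0.16) was widest in replicate 2 (-0.45, -0.97 and -0.05 in the replicate numbers) and was -0.162 without GCM U87-MG replicate 2.

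Several genes that the study named for their response to GCM had differences between the media whose intervals included 0. Ch25h, which makes 25-hydroxycholesterol, was 10.57, 10.53 and 10.29 in GCM LN18 against 10.63, 10.08 and 10.52 in GCM U87-MG, a difference of 0.05 (95% confidence interval -0.37 to 0.48). AI504432 differed by -0.01 (95% confidence interval -0.51 to 0.48), and Acss1, an acetyl-CoA synthetase of mitochondria, by 0.07 (95% confidence interval -0.27 to 0.42). Such intervals leave room for differences of that size and do not show equal levels. The study reports Acss1 as the only gene changed in GCM U87-MG and not in GCM LN18. That statement rests on each medium against untreated microglia and not on a test between the media. For the chemokine gene Cxcl14 the difference was 0.16 (95% confidence interval -0.03 to 0.35), and for Olfml3, a secreted glycoprotein of microglia, 0.22 (95% confidence interval -0.07 to 0.52). Tgfbi, a matrix protein induced by TGFβ, was 10.17, 11.18 and 10.31 in GCM LN18 against 10.26, 9.30 and 10.30 in GCM U87-MG. Its difference of 0.60 (95% confidence interval -0.14 to 1.33) came from replicate 2 alone (-0.09, 1.88 and 0.01), and without replicate 2 it was -0.042. The protease inhibitor genes Ctla2a and Ctla2b differed by 0.31 (95% confidence interval -0.06 to 0.68) and 0.33 (95% confidence interval -0.24 to 0.89). With arrays left out, the lowest differences were 0.070 for Cxcl14 (without replicate 2), 0.083 for Olfml3 and 0.166 for Ctla2a (both without GCM LN18 replicate 2), and 0.100 for Ctla2b (without GCM LN18 replicate 1).

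Genes of hypoxia and glycolysis were the list with the highest median difference, 0.16, among 31 lists of genes, while the median of all genes was -0.00028. Of 26 measured genes in this list, 25 were higher in GCM LN18 on average (49.8% of all genes) and 18 in all 3 replicate numbers (14.5% of all genes). None passed the test (0% called), and 2 of the 26 were higher at an unadjusted p under 0.05 (2.68% of all genes), Slc16a3 and Hk1. For 6 of the 26, all GCM LN18 arrays lay above all GCM U87-MG arrays (8.92% of all genes). The median was 0.068, 0.26 and 0.14 in the 3 replicate numbers, with 20, 22 and 25 genes above 0. With only the 6 arrays of the media in the fit, 12 of the 26 passed an unadjusted p of 0.05, beside 7.78% of all genes. Without GCM U87-MG replicate 2 the median was 0.034 and 19 genes were above 0, and without all arrays of replicate 2 it was 0.105 with 24. With untreated microglia as the base, the medians were 0.18 in GCM LN18 against 0.055 in GCM U87-MG. In either medium 0 genes of the list passed the test against untreated microglia (0.661% and 0.0175% of all genes). The summed log2 signal of the 26 genes was 192.5 to 197.6 in GCM LN18 and 187.2 to 194.7 in GCM U87-MG. It was 184.3 to 197.0 in untreated microglia, so the groups overlapped. Genes of a list share their arrays and can shift together, so counts of members are not counts of independent observations. The list was chosen with earlier results of these data known.

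The promoters of the 4 genes of this list with the largest difference are shown because the letters ACGTG and GCGTG are the core that HIF-1 is known to bind. Each is the stretch of 250 bases before the RefSeq start of the gene (GRCm38.p6), 5′ to 3′ on the strand of the gene. Capitals mark ACGTG or GCGTG, or their reverse complements CACGT and CACGC, and a run of CACGTG holds ACGTG on both strands.
Bnip3 (chr7:138909507-138909756, minus strand): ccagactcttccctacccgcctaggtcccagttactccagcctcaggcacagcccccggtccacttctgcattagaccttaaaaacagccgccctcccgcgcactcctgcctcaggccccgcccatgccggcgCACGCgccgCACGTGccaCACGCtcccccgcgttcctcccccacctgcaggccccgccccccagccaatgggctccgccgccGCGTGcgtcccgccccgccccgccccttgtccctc
Pfkl (chr10:78009808-78010057, minus strand): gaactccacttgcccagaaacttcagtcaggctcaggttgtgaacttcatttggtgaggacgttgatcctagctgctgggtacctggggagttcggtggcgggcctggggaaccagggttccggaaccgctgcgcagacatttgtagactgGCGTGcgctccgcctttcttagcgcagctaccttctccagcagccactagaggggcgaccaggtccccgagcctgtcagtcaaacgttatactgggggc
Slc16a3 (chr11:120948817-120949066, plus strand): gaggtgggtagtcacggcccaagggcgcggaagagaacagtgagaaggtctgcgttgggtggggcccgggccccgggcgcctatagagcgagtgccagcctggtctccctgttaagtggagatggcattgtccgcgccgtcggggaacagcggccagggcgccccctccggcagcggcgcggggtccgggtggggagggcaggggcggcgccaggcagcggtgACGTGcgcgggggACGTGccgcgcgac
Egln3 (chr12:54203875-54204124, minus strand): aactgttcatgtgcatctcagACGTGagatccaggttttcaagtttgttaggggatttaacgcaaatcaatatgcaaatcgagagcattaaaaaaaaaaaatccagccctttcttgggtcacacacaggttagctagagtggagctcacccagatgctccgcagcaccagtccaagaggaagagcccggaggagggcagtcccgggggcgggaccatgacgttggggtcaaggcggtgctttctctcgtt
Bnip3 has 5 matches, Slc16a3 has 2, and Pfkl and Egln3 have 1 each. In windows from 250 bases before to 50 after the start, ACGTG or its complement was in 22 of 34 windows of 25 of the 26 genes (64.7%) and in 19.6% of 32851 windows of all genes. For either core the shares were 82.4% and 43.8%. The list was made of genes known for their response to low oxygen, and a match of 5 letters is a description of the sequence, not of binding.

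Bnip3, a mitochondrial protein that promotes mitophagy and a known target of HIF-1, was 8.95, 8.34 and 8.71 in GCM LN18, with 8.43, 7.78 and 8.12 in GCM U87-MG and 7.27, 8.53 and 7.82 in untreated microglia (probe set 1422470_PM_at). It was higher by 0.56 on average in GCM LN18 (95% confidence interval -0.16 to 1.28), with 0.53, 0.55 and 0.59 in the 3 replicate numbers, which agree more closely than the levels do, since the arrays of both media overlap. The untreated arrays spread most, and untreated replicate 2 lay above GCM LN18 replicate 2. With equal replicate means, untreated values must shift the other way where both media shift together. Their wider spread therefore does not show that untreated cells varied more. That spread enters the interval: with only the 6 arrays of the media in the fit the interval was 0.43 to 0.69, and the adjusted p was 0.610 from limma. Slc16a3, the lactate exporter MCT4, was 4.54, 4.31 and 4.40 in GCM LN18, with 4.09, 3.90 and 4.02 in GCM U87-MG and 3.70, 4.12 and 3.92 in untreated microglia (probe set 1449005_PM_at). The media did not overlap, and they differed by 0.41 (95% confidence interval 0.15 to 0.68), or 0.45, 0.41 and 0.38 by replicate number.

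Enzymes of the glycolytic chain differed in the same direction, most of them by less. Pfkl, the liver type of phosphofructokinase, was 6.36, 5.86 and 6.07 in GCM LN18, with 6.10, 5.32 and 5.54 in GCM U87-MG and 4.60, 5.89 and 5.46 in untreated microglia, with a difference of 0.44 (95% confidence interval -0.31 to 1.20). The other probe sets of Pfkl, nearly as bright, gave 0.14 and -0.0071. Hexokinase 1 (Hk1) was 7.10, 7.17 and 7.29 against 6.92, 6.91 and 6.94 without overlap, and 7.23, 7.17 and 7.02 in untreated microglia. Its difference of 0.26 (95% confidence interval 0.09 to 0.44) goes with a level in GCM U87-MG below all untreated arrays, and a dim probe set gave 0.057. The triosephosphate isomerase gene Tpi1 differed by 0.26 (95% confidence interval -0.20 to 0.73), Gapdh by 0.18 (95% confidence interval -0.02 to 0.38) and the lactate dehydrogenase gene Ldha by 0.16 (95% confidence interval -0.13 to 0.45). Pgk1 and Aldoa, with differences of 0.16 and 0.12, had all GCM LN18 arrays above all GCM U87-MG arrays. Pkm, which encodes pyruvate kinase, differed by only 0.03 (95% confidence interval -0.11 to 0.16), and Aldoc by 0.004.

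The oxygen sensor Egln3, itself induced by HIF-1, was 5.78, 5.25 and 5.44 in GCM LN18, with 5.33, 4.94 and 5.12 in GCM U87-MG and 4.33, 5.26 and 4.89 in untreated microglia, a difference of 0.36 (95% confidence interval -0.18 to 0.90) with 0.45, 0.31 and 0.32 by replicate number, and a dimmer probe set gave 0.22. Its relative Egln1 differed by 0.09. Ankrd37 differed by 0.27, the angiogenic factor gene Vegfa by 0.24 and Pdk1, which inhibits pyruvate dehydrogenase, by 0.21, with intervals that all included 0. The glucose transporter gene Slc2a1 differed by 0.10. Adm, the gene of adrenomedullin and the only member below 0 on average, differed by -0.09 and was low on all arrays (3.60, 3.10 and 3.66 in GCM LN18). Car9, Ddit4 and Ndrg1, other known targets, differed by 0.04, 0.06 and 0.03.

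**Figure D2:**
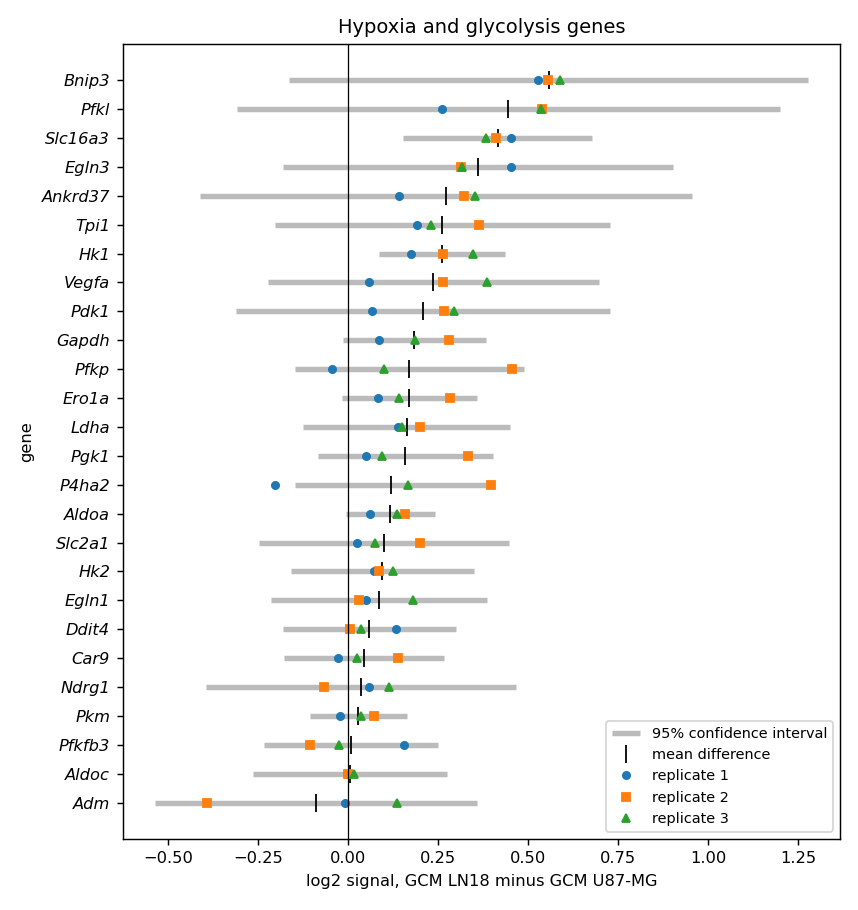
Log2 difference between GCM LN18 and GCM U87-MG (horizontal axis) for each of the 26 measured genes of hypoxia and glycolysis (vertical axis), with coloured points for the 3 replicate numbers, black ticks for their mean and grey bars for the 95% confidence interval from limma. Mean differences lie above 0 for 25 genes, and for Bnip3 and Slc16a3 the 3 replicate numbers lie close together.

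Genes of homeostatic microglia had the highest median among the other pathway lists, 0.11 over 18 measured genes, of which 13 were above 0. At an unadjusted p under 0.05, GCM LN18 was higher for 5 (2.68% of all genes) and lower for 2 (2.53%). Tmem119, a membrane protein specific to microglia in the brain, was 4.77, 4.96 and 4.65 in GCM LN18, with 3.96, 4.25 and 4.32 in GCM U87-MG and 4.12, 3.64 and 3.88 in untreated microglia (probe set 1451344_PM_at). The GCM LN18 arrays lay above all others, and the media differed by 0.62 (95% confidence interval 0.28 to 0.95). Tmem119 rose by 0.91 (limma, adjusted p = 0.0445) in GCM LN18 and differed by 0.30 (limma, adjusted p = 0.657) in GCM U87-MG. Cx3cr1, the fractalkine receptor, was 11.14, 11.33 and 11.30 against 11.03, 11.04 and 11.11, a difference of 0.19 (95% confidence interval 0.00 to 0.39).

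Golm1 differed by 0.34, Selplg, the ligand of P-selectin, by 0.22, and the ectonucleotidase gene Entpd1 by 0.18. For Entpd1 the GCM U87-MG arrays, at 4.72, 4.90 and 4.90, lay below the untreated arrays at 5.13, 5.11 and 5.07, and the GCM LN18 arrays lay between 4.96 and 5.11. Not all genes of this identity went the same way. Fcrls, an Fc receptor-like protein of microglia, was 10.16, 10.07 and 10.09 against 10.25, 10.30 and 10.23 and differed by -0.16 (95% confidence interval -0.29 to -0.02), and the dim gene Sparc by -0.27 (95% confidence interval -0.45 to -0.09), both with GCM LN18 below GCM U87-MG. The purinergic receptor gene P2ry12 (0.10, 95% confidence interval -0.25 to 0.44) and the transcription factor gene Sall1 (0.12, 95% confidence interval -0.09 to 0.32) were dim and did not separate the media.

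Genes of disease-associated microglia, which include phagocytic and lipid-handling proteins, showed small differences. Among 17 measured genes 0 passed at an unadjusted p under 0.05 (5.21% of all genes). The differences ran from -0.099 to 0.25, the median was -0.010 and the median log2 signal was 11.75. The highest value on any array was 12.88, and whether signals so near it were compressed was not tested. Apoe differed by -0.03 (95% confidence interval -0.17 to 0.11), Trem2 by -0.04 (95% confidence interval -0.21 to 0.13) and Lpl by -0.01 (95% confidence interval -0.13 to 0.11).

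Genes that load antigen on MHC class II were higher in GCM LN18 for both subunits of the DM chaperone, though not past the test between the media. H2-DMa, a subunit of the chaperone that exchanges peptides on class II molecules, was 4.71, 4.63 and 4.76 in GCM LN18, with 4.14, 4.35 and 4.28 in GCM U87-MG and 4.24, 4.10 and 4.05 in untreated microglia (probe set 1422527_PM_at). The GCM LN18 arrays lay above all others, with a difference between the media of 0.44 (95% confidence interval 0.26 to 0.63), although a dimmer probe set of the gene gave -0.010. The other subunit, H2-DMb1, was 5.80, 5.81 and 5.81 in GCM LN18, with 5.47, 5.42 and 5.57 in GCM U87-MG and 5.32, 5.36 and 5.21 in untreated microglia, a difference of 0.32 (95% confidence interval 0.17 to 0.47). Both rose in GCM LN18, by 0.57 (limma, adjusted p = 0.0292) and 0.51 (limma, adjusted p = 0.024), and their differences in GCM U87-MG were 0.12 (limma, adjusted p = 0.745) and 0.19 (limma, adjusted p = 0.528). The class II molecule gene H2-Ab1 was dim, at 3.38, 3.28 and 3.31 against 3.15, 3.22 and 3.16, and H2-Aa, H2-Eb1 and the class II transactivator gene Ciita differed by -0.0022, -0.0035 and -0.01. Over the whole list of antigen presentation and costimulation 3 of 19 genes were higher at an unadjusted p under 0.05 and 0 lower (2.68% and 2.53% of all genes), with a median of 0.071. Cd28, a costimulatory receptor, differed by -0.42 (95% confidence interval -1.07 to 0.24), all of it from replicate 2 (0.01, -1.27 and 0.01).

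Chemokines and their receptors had 5 of 31 measured genes higher in GCM LN18 at an unadjusted p under 0.05 and 0 lower (2.68% and 2.53% of all genes), with a median of 0.030. Ccl2, which recruits monocytes, was 9.66, 9.75 and 9.53 in GCM LN18, with 9.38, 9.22 and 8.95 in GCM U87-MG and 8.88, 8.95 and 9.45 in untreated microglia (probe set 1420380_PM_at). Its arrays did not overlap between the media, and the difference was 0.47 (95% confidence interval 0.09 to 0.85), or 0.289 without GCM U87-MG replicate 3. Ccl7, another monocyte chemokine, was 5.99, 6.72 and 6.21 against 6.00, 5.61 and 5.72, a difference of 0.53 (95% confidence interval 0.08 to 0.98) with overlap. By replicate number it was -0.01, 1.11 and 0.49, and without GCM LN18 replicate 2 it was 0.220. Ccl6 and Cxcl13 differed by 0.30 and 0.17. Cxcl2, a neutrophil chemokine, differed by -0.45 (95% confidence interval -1.08 to 0.17).

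Among inflammatory genes driven by NF-κB, the largest difference was that of Ptgs2, the inducible cyclooxygenase of prostaglandin synthesis. It was 4.06, 4.55 and 4.46 in GCM LN18, with 5.40, 5.44 and 5.01 in GCM U87-MG and 5.51, 4.99 and 5.50 in untreated microglia (probe set 1417262_PM_at). All GCM LN18 arrays lay below all others, and the media differed by -0.92 (95% confidence interval -1.36 to -0.49), while a dim probe set gave -0.094. Ptgs2 was -0.98 (limma, adjusted p = 0.084) relative to untreated microglia in GCM LN18 and -0.05 (limma, adjusted p = 0.967) in GCM U87-MG, so neither passed the test. Over the 24 genes of the list the median was -0.064 (0.028 without GCM U87-MG replicate 2, 0.033 without GCM LN18 replicate 1), with 1 gene higher and 1 lower at an unadjusted p under 0.05 (2.68% and 2.53% of all genes). Tnf differed by -0.11 (95% confidence interval -0.46 to 0.24), Il1b by -0.27 (95% confidence interval -0.66 to 0.13), and Il6 was dim in both media with a difference of 0.07. Klf2, a transcription factor that restrains inflammation in macrophages and endothelium, was 5.52, 5.96 and 6.05 in GCM LN18, with 5.11, 5.01 and 5.19 in GCM U87-MG and 5.42, 5.08 and 4.81 in untreated microglia (probe set 1448890_PM_at), and here the GCM LN18 arrays lay above all others, with a difference of 0.74 (95% confidence interval 0.33 to 1.15).

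In the list of alternative activation, Arg1 was the only gene of all 17097 with an average difference of at least 2-fold between the media. Arg1 encodes arginase 1, which competes for arginine with nitric oxide synthesis. It was dim, with untreated and GCM U87-MG arrays on either side of the median probe set at 3.40. Its log2 signal (probe set 1419549_PM_at) was 4.12, 5.15 and 4.97 in GCM LN18, with 3.87, 3.20 and 3.94 in GCM U87-MG and 3.27, 2.92 and 2.35 in untreated microglia. The arrays did not overlap between the media, but replicate 1 was close (0.25, 1.95 and 1.03 by replicate number), and the difference of 1.08 had an interval from 0.31 to 1.84. Without replicate 2 it was 0.642, under 2-fold. Tgm2, a transglutaminase that crosslinks matrix proteins, was 6.12, 7.17 and 6.40 in GCM LN18, with 5.79, 5.67 and 6.03 in GCM U87-MG and 5.37, 4.44 and 4.85 in untreated microglia, a difference of 0.74 (95% confidence interval 0.05 to 1.43). By replicate number it was 0.33, 1.51 and 0.38, without GCM LN18 replicate 2 it was 0.282, and a dimmer probe set gave 0.10. Neither gene passed the test against untreated microglia in either medium, with differences in GCM LN18 of 1.90 (limma, adjusted p = 0.0625) and 1.68 (limma, adjusted p = 0.0649). The study lists Tgm2 as past its own cut in both media, from a model whose terms it does not state. By qPCR it reports Arg1 raised by U87-MG medium at an earlier time, and not significantly raised by LN18 medium. The nuclear receptor gene Pparg was 6.76, 6.61 and 6.72 against 7.03, 7.05 and 6.80 and differed by -0.26 (95% confidence interval -0.48 to -0.04), or -0.176 without replicate 2.

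Genes of TGFβ signalling were divided, with 14 of 30 measured genes above 0 and a median of -0.026, which became 0.036 when the probe sets of a gene were averaged. Acvrl1, a type I receptor for ligands of this family, was 6.74, 6.67 and 6.66 in GCM LN18, with 6.18, 6.07 and 6.42 in GCM U87-MG and 6.22, 6.40 and 6.06 in untreated microglia (probe set 1451604_PM_a_at), without overlap of the media and with a difference of 0.47 (95% confidence interval 0.21 to 0.72), and a dimmer probe set gave 0.13. The target gene Klf10 was 7.69, 7.92 and 7.72 in GCM LN18, with 7.49, 7.50 and 7.42 in GCM U87-MG and 7.16, 6.91 and 7.19 in untreated microglia, a difference of 0.31 (95% confidence interval 0.09 to 0.52), or 0.198 without GCM LN18 replicate 2. Smad2, which carries the signal to the nucleus, was lower, at 7.09, 7.06 and 7.11 in GCM LN18, with 7.35, 7.39 and 7.28 in GCM U87-MG and 7.39, 7.38 and 7.44 in untreated microglia, with a difference of -0.26 (95% confidence interval -0.39 to -0.13) and -0.13 at its other probe set. The receptor genes Tgfbr1 and Tgfbr2 differed by 0.14 and -0.12, and the feedback inhibitor Smad7 by 0.16.

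In the list of ERK feedback and ETS factors the median was -0.041 over 19 genes, of which 1 was higher and 2 lower at an unadjusted p under 0.05 (2.68% and 2.53% of all genes). The phosphatase gene Dusp4 was 6.13, 6.05 and 6.21 in GCM LN18, with 6.50, 6.65 and 6.38 in GCM U87-MG and 6.63, 6.56 and 6.67 in untreated microglia (probe set 1428834_PM_at). GCM LN18 arrays lay below all others, with a difference of -0.39 (95% confidence interval -0.58 to -0.19), while Dusp6 differed by 0.10 (95% confidence interval -0.15 to 0.36). Genes of Wnt signalling had 4 of 28 lower in GCM LN18 at an unadjusted p under 0.05 and 0 higher (2.53% and 2.68% of all genes), with a median of -0.040, and most of them were dim (median log2 signal 3.13). The inhibitor gene Dkk2 was 5.18, 5.20 and 5.16 in GCM LN18 against 5.79, 6.76 and 5.77 in GCM U87-MG, and replicate 2 of the latter stood apart. The receptor genes Fzd5 and Fzd7 differed by -0.44 (95% confidence interval -0.79 to -0.09) and -0.33 (95% confidence interval -0.60 to -0.06). Without replicate 2 these were -0.259 and -0.187, and dimmer probe sets gave -0.21 and 0.061.

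Chaperones of the endoplasmic reticulum had 16 of 20 genes lower in GCM LN18 on average (50.2% of all genes), with a median of -0.055. In all 3 replicate numbers 5 of the 20 were lower (14.5% of all genes), and the median in replicate 3 was 0.019. The sensor gene Atf6 differed by -0.18 (95% confidence interval -0.34 to -0.02), but its other probe set by 0.12, and without replicate 1 it was -0.112. Genes of sterol and fatty acid synthesis showed opposite medians in the replicate numbers, 0.31, -0.20 and -0.064. For the interferon response 0 of the 20 genes passed an unadjusted p of 0.05 (5.21% of all genes). Ifit3 was at 6.83, 7.99 and 7.61 in GCM LN18 against 6.55, 7.01 and 7.50 in GCM U87-MG. Genes of the ATF4 response to amino acid shortage had medians of -0.50 and -0.51 against untreated microglia, with 2 and 0 of 22 past the test, and a median of 0.037 between the media. Cell cycle genes had a median difference of -0.033.

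**Figure D3:**
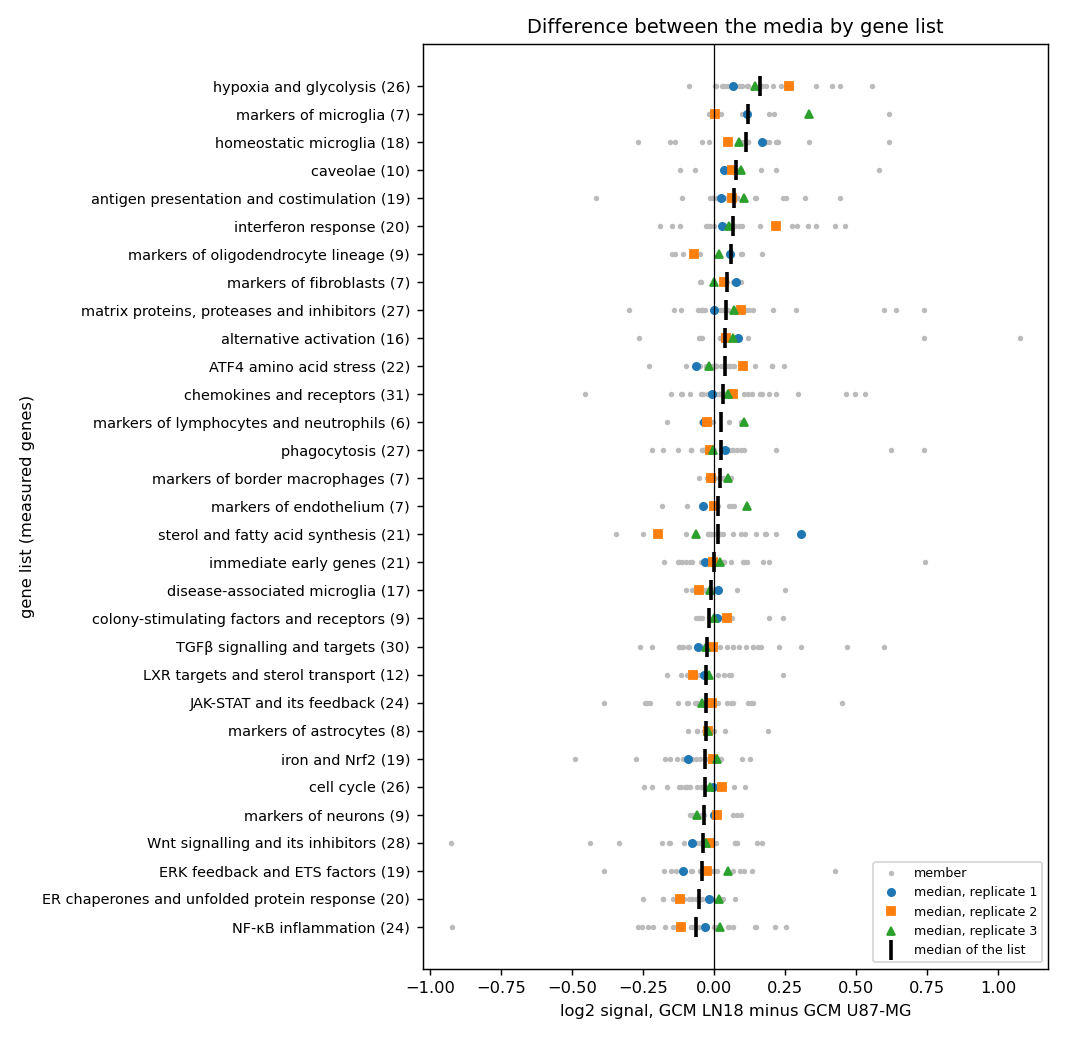
Log2 difference between GCM LN18 and GCM U87-MG (horizontal axis) by gene list (vertical axis, number of measured genes in brackets), with small grey points for genes, coloured points for the list median in each of the 3 replicate numbers and black ticks for the median of the mean differences. Hypoxia and glycolysis genes have the highest median, 0.16, and the list medians run from -0.064 to 0.16.

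Of the named genes, Nicn1 had the lowest unadjusted p between the media, with log2 signals (probe set 1449376_PM_at) of 6.25, 6.27 and 6.22 in GCM LN18, with 5.77, 5.86 and 5.74 in GCM U87-MG and 5.95, 5.84 and 6.01 in untreated microglia. The difference was 0.46 (95% confidence interval 0.31 to 0.61), and the other probe set of the gene gave 0.29. Nipsnap1, which marks damaged mitochondria for removal, was 5.70, 5.66 and 5.80 against 5.39, 5.04 and 5.31, a difference of 0.47 (95% confidence interval 0.17 to 0.77). Cysltr1, a leukotriene receptor, differed by 0.43 (95% confidence interval 0.14 to 0.72), but by 0.11 at another probe set of like brightness. By replicate number Cysltr1 was 0.17, 0.21 and 0.90, and without replicate 3 it was 0.193. The small GTPase gene Rras differed by 0.39 (95% confidence interval 0.13 to 0.66), and Tnfrsf13b, a receptor for BAFF and APRIL, by 0.36 (95% confidence interval 0.14 to 0.58), or 0.234 without GCM U87-MG replicate 2. Slc18b1 and Ikbip differed by 0.39 and 0.36.

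In the other direction, Fgf13, a member of the fibroblast growth factor family that stays inside the cell, was 8.12, 8.11 and 8.30 in GCM LN18, with 8.65, 8.71 and 8.62 in GCM U87-MG and 8.67, 8.61 and 8.51 in untreated microglia (probe set 1418497_PM_at). The GCM U87-MG arrays lay at the untreated level and the GCM LN18 arrays below both, a difference of -0.48 (95% confidence interval -0.66 to -0.31), with -0.13 at a dimmer probe set. Asb10 was 5.54, 5.16 and 5.29 against 5.73, 6.34 and 5.78, a difference of -0.62 (95% confidence interval -1.05 to -0.19), and its other probe set gave -0.26. Without GCM U87-MG replicate 2 the difference of Asb10 was -0.327. Rmdn2 differed by -0.39 (95% confidence interval -0.57 to -0.20), with -0.41, -0.27 and 0.076 from its other probe sets. The GTPase gene Rhoj (5.94, 5.81 and 5.94 against 6.25, 6.29 and 6.17) differed by -0.34 (95% confidence interval -0.49 to -0.19), and Sac3d1, Sncaip, Noa1 and Aven by -0.34, -0.38, -0.33 and -0.31. For Nanos1 (6.90, 6.86 and 6.82 against 7.34, 7.39 and 7.09, 6.93, 6.92 and 7.26 untreated) and Gm11772, differing by -0.41 and -0.43, GCM U87-MG was the group with the highest mean. Another probe set of Nanos1 gave -0.52.

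**Figure D4:**
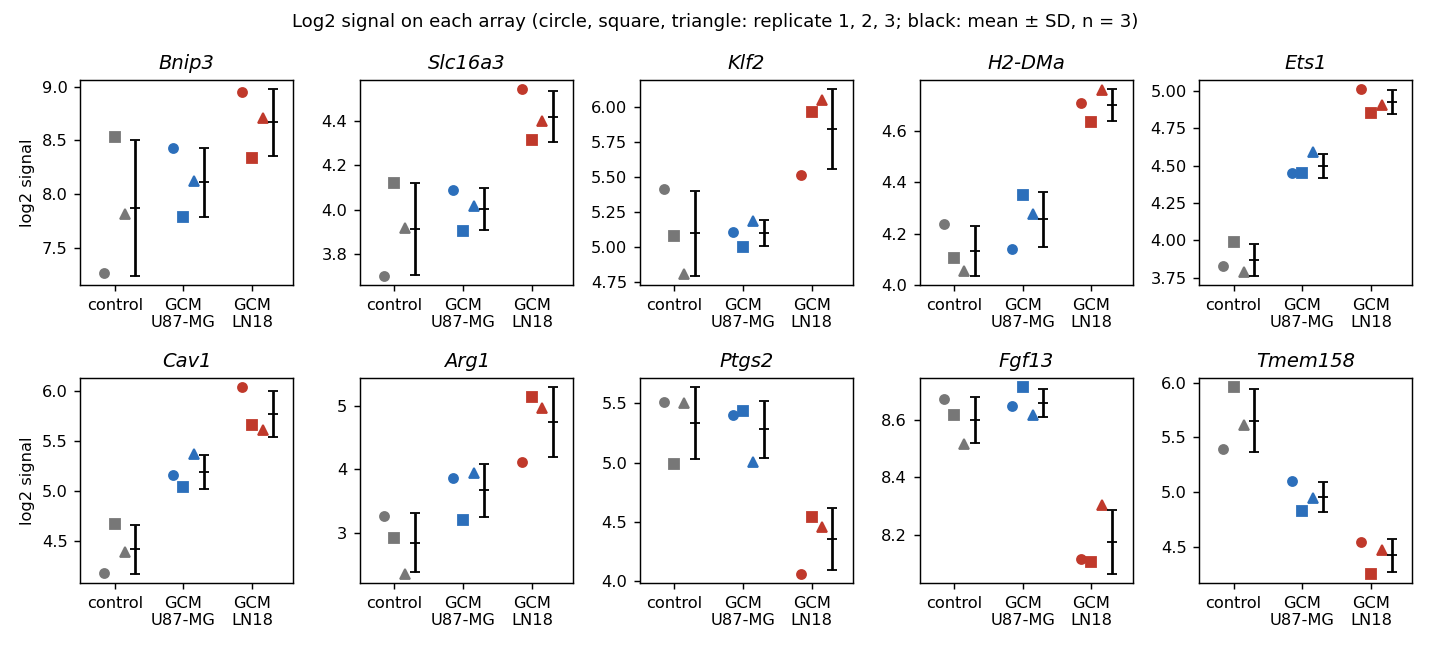
Log2 signal (vertical axes, scaled per gene) on each array of untreated microglia (grey), GCM U87-MG (blue) and GCM LN18 (red), with a marker shape per replicate number and black bars for the mean ± SD (n = 3). For each gene except Bnip3 the GCM LN18 and GCM U87-MG arrays do not overlap, and no gene passed the test between the media.

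Marker genes of other cells were mostly dim in both media. The summed log2 signal of 8 astrocyte markers was 22.6 to 22.9 in GCM LN18 against 22.7 to 22.9 in GCM U87-MG, and that of 7 fibroblast markers 20.5 to 20.7 against 20.2 to 20.6. For 7 border macrophage markers the sum was 40.8 to 41.1 against 40.6 to 41.2. Their median was 3.37, so a sum of this size means that some of them were bright. Gfap was at 3.32, 3.14 and 3.17 in GCM LN18 against 3.21, 3.31 and 3.29 in GCM U87-MG, and Col1a1 at 2.18, 2.27 and 2.17 and 2.26, 2.20 and 2.31. Of the single markers of other cells, 3 differed at an unadjusted p under 0.05, while 5.21% of all genes did. They were 1 of 8 astrocyte, 1 of 9 oligodendrocyte lineage, and 1 of 6 lymphocyte and neutrophil markers. For neurons it was 0 of 9, and for fibroblasts, endothelium and border macrophages 0 of 7 each. S100b, an astrocyte marker, was higher in GCM LN18, at 2.44, 2.45 and 2.43 against 2.25, 2.35 and 2.16, while Olig2 of the oligodendrocyte lineage (2.15, 2.21 and 2.27 against 2.40, 2.33 and 2.36) and S100a8 of neutrophils (2.97, 3.11 and 3.11 against 3.23, 3.23 and 3.23) were lower, all without overlap. These differences were 0.19 (95% confidence interval 0.02 to 0.36), -0.15 (95% confidence interval -0.29 to -0.01) and -0.16 (95% confidence interval -0.32 to -0.01). Another probe set of S100b, about as dim, gave 0.0053. Mean log2 signals of S100b, Olig2 and S100a8 were 2.34, 2.29 and 3.10, all below the median probe set at 3.40. For 7 microglia markers the sum was 51.8 to 52.0 in GCM LN18, 50.2 to 51.5 in GCM U87-MG and 48.1 to 49.3 in untreated microglia, without overlap of the groups. Tmem119, Aif1 and Cx3cr1 were higher at an unadjusted p under 0.05, 3 of the 7 (2.68% of all genes), and Itgam and Csf1r differed by 0.02 and -0.02. Whether the share of microglia in the cultures had a part in the differences of homeostatic genes was not tested.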

How the data were processed

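RNA of 9 primary microglia samples, 3 each of untreated cells, GCM LN18 and GCM U87-MG, was measured on Affymetrix MG-430 PM strip arrays. The deposited values are log2 signals of probe sets, normalized by the authors before deposit. The submitters' notes name limma, and the methods of background correction and normalization are not given in the sources used here for these arrays. For arrays no depth is known, and the number of arrays limits the precision. Samples were grouped by their labels. Of 45141 probe sets, 104 controls were left out. Of the other 45037, 28898 have 1 gene symbol, 551 several and 15588 none here, and 28689 were matched to a current symbol.

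The model was fitted to all 9 arrays in limma 3.58.1 (R 4.3.3), with group and replicate number as terms, which left 4 residual degrees of freedom. Benjamini-Hochberg adjustment ran over all 45037 probe sets, also for the values given for genes. Intervals are at 95% and unadjusted. The replicate number was kept as a block because the comparison was defined with it. Whether the numbers pair the samples could not be checked, since the replicate means are equal. P-values measure how far the differences between groups vary over the replicate numbers, not how far the cultures lie apart.

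Named genes numbered 72. They include 12 per direction with the largest differences. These had an unadjusted p under 0.01, a mean log2 signal of at least 5 and 1 direction in all replicate numbers. Added were genes named for these arrays by the study (18 of 20 measured) and at most 2 per direction of each list. Another 3 per direction came from the genes chosen by the mean of both media. Other genes are given as members of their list. The lists numbered 31, 23 of pathways and 8 of cell type markers. Members and lists were chosen with earlier results of these data known. Alternatives were the fit without the block, only the 6 arrays of the media, other choices of probe set, a filter on dim probe sets, trend and robust estimation, quantile normalization, median centring, array weights, and leaving out each array or replicate number. Promoter windows were taken from RefSeq. The fit was tested on simulated data.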

Additional observations from a re-analysis of the deposited data

How the results depend on the processing

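The count of probe sets past the test between the media was 0 with the replicate block and 1 without it or with array weights. In every other alternative, each array or replicate number left out included, it was 0. The replicate means were removed before deposit, so the fit without the block counts 6 residual degrees of freedom where 4 remain, and its counts are inflated by construction. Without the replicate block, 330 genes were higher and 351 lower in both media on average than in untreated microglia, in place of 76 and 42, and 259 of each were on the GCM LN18 side. Leaving out arrays or replicate numbers gave 0 (without replicate 1) to 100 higher and 0 (without replicate 1) to 60 lower genes (both without GCM U87-MG replicate 2). It gave median differences of 0.070 (without replicate 2) to 0.35 (without replicate 3, over 2 genes) for higher genes and -0.22 (without GCM LN18 replicate 3) to -0.018 (without replicate 2) for lower ones. Leaving out a single array unbalances the design, so that the choice of these genes then uses part of the difference. For hypoxia and glycolysis genes the median ran from 0.034 (without GCM U87-MG replicate 2) to 0.24 (without GCM U87-MG replicate 1). The sign of 4 of the 72 named genes turned when arrays were left out, with ranges of -0.063 to 0.23 for Acss1, -0.24 to 0.17 for AI504432, -0.20 to 0.22 for Ch25h and -0.042 to 0.94 for Tgfbi. Acss1 was -0.000663 with the mean of its probe sets, and Ch25h was -0.019 with array weights. The median of cell cycle genes ran from -0.098 to 0.046, that of JAK-STAT genes from -0.066 to 0.0017, and that of astrocyte markers was 0.0074 with the mean of probe sets. Other list medians near 0 also turned sign, among them that of TGFβ signalling, at 0.014 with array weights and 0.036 with the mean of probe sets. The causes were not tested.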

Other observations

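Genes of the class II pathway beyond the list were looked at after the values of H2-DMa had been seen. H2-DMb2, the paralog of H2-DMb1, was 6.45, 6.43 and 6.43 on the log2 scale in GCM LN18, with 6.08, 6.10 and 6.12 in GCM U87-MG and 5.96, 5.96 and 5.93 in untreated microglia. The groups did not overlap, and the media differed by 0.34 (95% confidence interval 0.22 to 0.45). H2-DMb1 and H2-DMb2 are close paralogs, and whether their probe sets share targets was not tested. Rfxank, a subunit of the RFX complex that binds class II promoters, was 5.46, 5.60 and 5.63 in GCM LN18, with 5.24, 5.20 and 5.21 in GCM U87-MG and 5.29, 5.20 and 5.15 in untreated microglia, a difference of 0.35 (95% confidence interval 0.19 to 0.50). Neither H2-DMb2 nor Rfxank passed the test between the media in limma, with an adjusted p of 0.956 for both. H2-DMb2 was also among the probe sets with the lowest unadjusted p between the media. Other class II pathway genes looked at then did not separate the media. Cd74 was 4.54, 4.46 and 4.82 in GCM LN18 against 4.54, 4.54 and 4.33 in GCM U87-MG. It differed by 0.14 (95% confidence interval -0.10 to 0.39) with overlap, and H2-Aa differed by -0.0022.

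Xist, which is transcribed from the inactive X chromosome, differed by 0.38 between the media at 1 probe set (1427262_PM_at, 7.42, 7.40 and 7.44 in GCM LN18 against 7.11, 7.04 and 6.96 in GCM U87-MG), and by 0.023 and 0.094 at the other 2. The Y-linked gene Eif2s3y was 7.80, 7.87 and 7.79 in GCM LN18 against 7.57, 7.64 and 7.67 in GCM U87-MG (1417210_PM_at). Both were chosen after their values were seen.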
